A study of Mus musculus with 12 samples.

Results

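Neutrophil marker genes were followed in mouse liver after an acetaminophen overdose, in animals with and without the gene Pml. The set was a list of 10 genes: S100a8, S100a9, Csf3r, Retnlg, Mmp8, Mmp9, Clec4d, Clec4e, Il1r2 and Ngp. Members were chosen by name, as the probe sets that carry exactly 1 of these symbols. All 10 were on the array with 1 probe set each, out of 18820 genes with such a probe set. All 10 also entered the test, which took 17052 genes with a mean log2 intensity of at least 5 over the 12 arrays. Retnlg, Mmp8, Mmp9 and Clec4e passed that limit only through the wt 6 h arrays. Without those arrays their means were 4.98, 4.90, 4.95 and 4.63.

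The mice were BALB/cByJ females, 2.5 months old, with Pml (wt) or without it (KO). The 6 groups of 2 arrays each were wt untreated, KO untreated, wt 2 h, KO 2 h, wt 6 h and KO 6 h, the hours being the time from an intraperitoneal injection of 300 mg/kg acetaminophen in warmed PBS. Untreated mice were killed without a stated injection, so the injection itself differs between treated and untreated groups along with the drug. The labels describe the knockout only as Pml KO, with no exon or cell type. They also leave out whether each array stands for a separate animal, so the p-values cover only the spread among these arrays, which may be technical.

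Neutrophils are short-lived granulocytes that are made in the bone marrow, circulate in blood and are drawn into injured tissue by chemokines. In acetaminophen injury they enter the liver after hepatocytes around the central vein have died. The RNA of a mature neutrophil is rich in most of the genes measured here, while many proteins of its granules are transcribed earlier, in marrow precursors. In whole liver, a change in the number of neutrophils and a change in RNA per cell cannot be told apart.

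The members fall into 4 roles. S100a8 and S100a9 encode the 2 subunits of calprotectin, a calcium-binding protein of the neutrophil cytosol that signals through TLR4 and RAGE when released. Csf3r is the receptor of G-CSF, the growth factor of neutrophils, and Il1r2 is a decoy receptor that binds interleukin-1 without signalling. Mmp8, a collagenase, Mmp9, a gelatinase, Ngp, a cathelicidin-related granule protein, and Retnlg, a secreted resistin-like protein, form the granule and secreted group. Clec4d and Clec4e encode C-type lectin receptors of myeloid cells, MCL and Mincle. Mincle senses microbial glycolipids and material from dead cells, and signals through Fcer1g, Syk and Card9.

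Promoter sequence was printed for members that stand next to each other in the genome or had the largest response. S100a8 and S100a9 are neighbours on chromosome 3, and Clec4d and Clec4e on chromosome 6, each with 0 protein-coding genes between them. Mmp8 had the largest difference at 6 h. The RefSeq promoter table of build GRCm38.p6 held 9 of the 10 members, all but Mmp9. The 250 bases before the annotated start are given 5′ to 3′ on the gene's strand. They lie at chr3:90668821-90669070 on the + strand for S100a8 and chr3:90695722-90695971 on the - strand for S100a9. For Mmp8 they lie at chr9:7558179-7558428 on the + strand. For Clec4d they lie at chr6:123261857-123262106 on the + strand, and for Clec4e at chr6:123289872-123290121 on the - strand. Capitals mark matches, on either strand, to the C/EBP letters TTNNGNAA or the PU.1 letters GAGGAA, both motifs of transcription factors of the myeloid lineage. The 2 do not overlap in these 5 sequences.
S100a8: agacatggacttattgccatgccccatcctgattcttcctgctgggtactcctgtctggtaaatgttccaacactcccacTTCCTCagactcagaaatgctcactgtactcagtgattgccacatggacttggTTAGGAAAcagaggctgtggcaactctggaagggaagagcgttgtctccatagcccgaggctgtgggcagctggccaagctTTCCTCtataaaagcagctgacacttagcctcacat
S100a9: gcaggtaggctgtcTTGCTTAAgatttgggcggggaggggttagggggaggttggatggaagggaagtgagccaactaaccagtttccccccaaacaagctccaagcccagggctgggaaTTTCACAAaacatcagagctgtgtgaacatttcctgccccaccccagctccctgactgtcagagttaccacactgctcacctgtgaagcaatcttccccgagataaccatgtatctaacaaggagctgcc
Mmp8: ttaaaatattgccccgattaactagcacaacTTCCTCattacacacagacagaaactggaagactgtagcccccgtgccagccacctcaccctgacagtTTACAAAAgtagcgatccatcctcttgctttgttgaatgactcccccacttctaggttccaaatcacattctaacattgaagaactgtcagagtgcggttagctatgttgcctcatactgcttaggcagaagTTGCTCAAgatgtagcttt
Clec4d: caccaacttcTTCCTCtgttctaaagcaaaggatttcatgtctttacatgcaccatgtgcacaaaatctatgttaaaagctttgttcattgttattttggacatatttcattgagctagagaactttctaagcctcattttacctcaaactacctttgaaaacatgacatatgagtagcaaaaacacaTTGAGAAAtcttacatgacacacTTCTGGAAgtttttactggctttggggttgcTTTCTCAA
Clec4e: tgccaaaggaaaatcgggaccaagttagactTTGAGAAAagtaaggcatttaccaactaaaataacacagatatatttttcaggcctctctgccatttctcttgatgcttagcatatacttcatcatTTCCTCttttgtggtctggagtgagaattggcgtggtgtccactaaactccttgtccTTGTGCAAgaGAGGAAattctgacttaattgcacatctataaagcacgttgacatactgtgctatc

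Within 300 bases around the start (250 before, 50 after), the C/EBP letters were found in 7 of the 9 members, all but Csf3r and Il1r2, and in 40.7% of 32851 mouse promoters. The PU.1 letters were found in 5 of 9, namely S100a8, Csf3r, Mmp8, Clec4d and Clec4e, and in 28.3% of all promoters. Letters for NF-kB, GGG and CC with any 5 bases between them, were found in 1 of 9, Csf3r, and in 50.8% of all promoters. The AP-1 letters TGANTCA were found in 0 of 9 and in 7.81% of all promoters. A match is a description of these letters, and no match says only that they are not in this window.

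Pml itself was the check of the genotype labels. Its log2 intensity was 8.18 and 8.46 in wt untreated, 7.82 and 7.92 in wt 2 h and 7.87 and 7.88 in wt 6 h liver. The KO untreated arrays read 7.10 and 7.97, the KO 2 h arrays 7.11 and 7.50, and the KO 6 h arrays 7.09 and 7.16. The array labelled KO untreated replicate 2, at 7.97, lay among the wt arrays, although below both wt untreated arrays. The labels do not say whether the probe set lies in the deleted part of Pml. KO minus wt was -0.79 ± 0.24 (SE), -0.56 ± 0.24 and -0.75 ± 0.24 on the log2 scale in untreated, 2 h and 6 h liver. A gene counts as called, here and for the members, at an adjusted p under 0.05 in limma, a linear model that shares its estimate of spread across genes, with adjustment over all tested genes. Pml was not called in any of the 3 (adjusted p = 1.0, 0.184 and 0.0715). Leaving out the array labelled KO untreated replicate 2 changed no count of called genes among the 10 except that of the 6 h genotype difference in response and of the late step, given beside those results. Array medians of the deposited intensity were 79.9 to 90.1, and 2 arrays a group limit the precision.

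In untreated liver the members stood at a low level that did not differ detectably between genotypes. S100a8 read 6.56 and 6.57 in wt and 6.63 and 6.69 in KO liver on the log2 scale, and Mmp8 read 3.77 and 3.54 against 4.14 and 4.17. KO minus wt ranged from -0.25 (Retnlg) to 0.50 (Mmp8). limma called 0 of 10 members, 0 had an unadjusted p under 0.05, and 0.00586% of all tested genes were called in either direction. The interval of the KO minus wt difference was -0.44 to 0.62 for S100a8 and -1.48 to 2.07 for Clec4e, so differences inside those bounds were not excluded. These intervals are not adjusted for the number of genes.

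**Figure D1:**
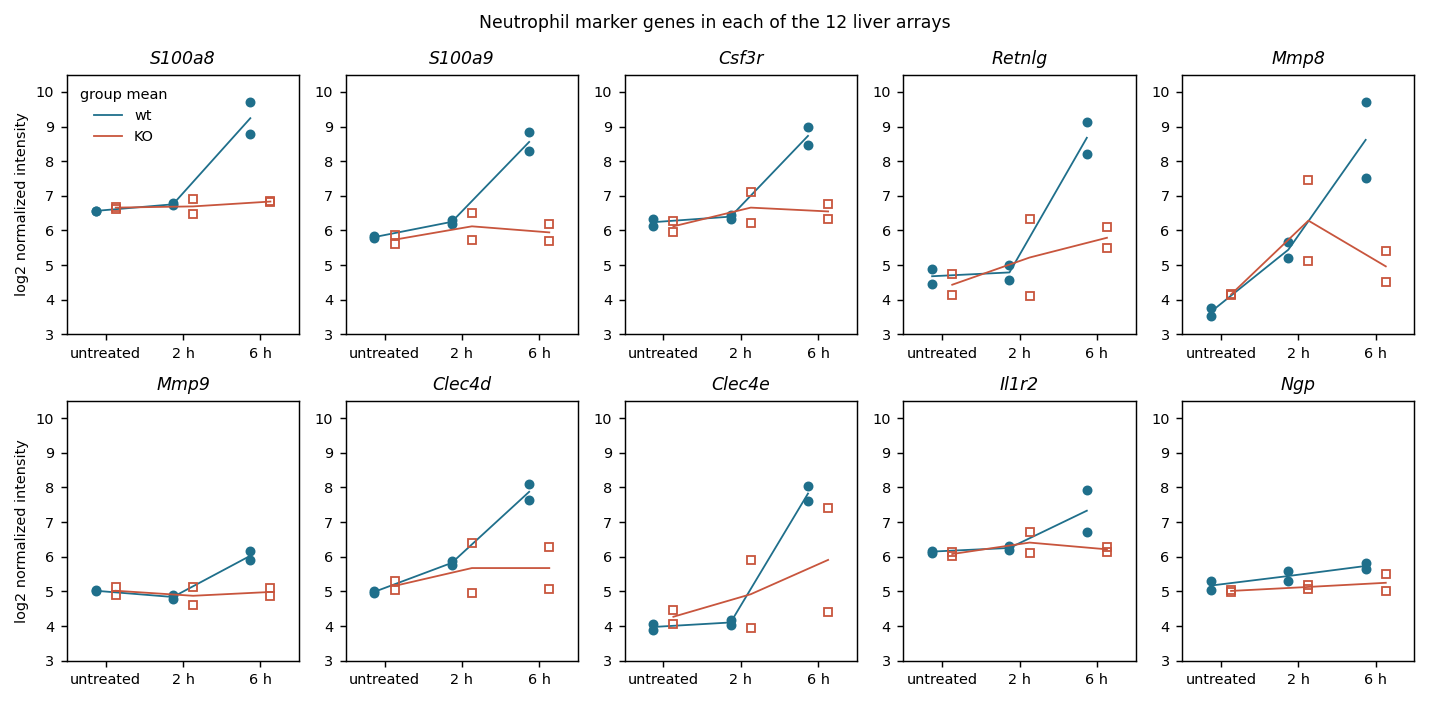
The log2 normalized intensity (vertical axis) of each of the 10 genes is plotted by time (untreated, 2 h, 6 h) for every array. Filled circles are wt, open squares are KO, and lines join the means of the 2 arrays of a group. The wt 6 h arrays stand above all KO 6 h arrays for every gene, with S100a8 at 9.70 and 8.78 against 6.85 and 6.82.

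By 6 h after acetaminophen, all 10 genes had risen in wt liver. The rises ran from 1.48-fold for Ngp to 31.12-fold for Mmp8, and both 6 h arrays lay above both untreated arrays for each of the 10 genes. How many of all tested genes had arrays apart in this way was not counted, here or in the comparisons below. Mmp8 read at intensities of 13.6 and 11.7 in untreated wt liver, far below the array medians, so the size of its fold is uncertain. With 16 added to each value before log2 its difference was 3.85 in place of 4.96, still above the 3.35 of Retnlg, the next. All 10 were called higher, and so were 16.5% of all tested genes. Dropping the limit on the mean left 10 calls. The median difference was 2.71 over the members and -0.05 over all tested genes.

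Both calprotectin genes rose, with the wt 6 h arrays 0.93 apart for S100a8 and 0.56 apart for S100a9, against a median gap of 0.148 over all tested genes. S100a8 read 9.70 and 8.78 at 6 h against 6.56 and 6.57 untreated, a log2 difference of 2.67 ± 0.24 (SE, adjusted p = 3.2e-05 in limma). S100a9 read 8.83 and 8.28 against 5.85 and 5.77, a difference of 2.75 ± 0.26 (adjusted p = 4.27e-05 in limma). For both genes the gap between the groups exceeded the gap within them.

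The 2 cytokine receptors rose by unequal amounts. Csf3r read 9.0 and 8.46 at 6 h against 6.34 and 6.14 untreated, a difference of 2.49 ± 0.27 (adjusted p = 9.52e-05 in limma). Il1r2 read 7.94 and 6.72 against 6.12 and 6.18, a difference of 1.18 ± 0.32 (adjusted p = 0.0138 in limma). The lower Il1r2 array at 6 h was above both untreated arrays, but closer to them than to the other 6 h array. The Il1r2 difference was 0.57 without wt 6 h replicate 1, and its adjusted p reached 0.0797 over the alternatives tried.

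Among the granule and secreted genes, the collagenase Mmp8 had the largest response and the widest spread. It read 9.71 and 7.52 at 6 h against 3.77 and 3.54 untreated, a difference of 4.96 ± 0.74 (adjusted p = 0.000553 in limma). Retnlg read 9.14 and 8.21 against 4.47 and 4.89, a difference of 3.99 ± 0.58 (adjusted p = 0.00045 in limma). Both were raised many fold in each 6 h array. The gelatinase gene Mmp9 moved far less, reading 6.16 and 5.90 against 5.03 and 5.01, a difference of 1.01 ± 0.17 (adjusted p = 0.00123 in limma). Ngp read 5.83 and 5.64 against 5.05 and 5.29, a difference of 0.57 ± 0.17 (adjusted p = 0.02 in limma). Ngp had the smallest difference of the 10 genes. Neither Ngp nor Il1r2 was called without wt 6 h replicate 1 or without wt untreated replicate 1, which left 8. Without wt untreated replicate 2, Il1r2 alone lost its call.

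The lectin receptor genes rose together. Clec4d read 8.10 and 7.65 at 6 h against 5.02 and 4.96 untreated, a difference of 2.88 ± 0.44 (adjusted p = 0.000601 in limma). Clec4e read 8.04 and 7.61 against 4.05 and 3.90, a difference of 3.85 ± 0.80 (adjusted p = 0.00366 in limma). The wt 6 h arrays lay 0.45 apart for Clec4d and 0.43 for Clec4e. The standard error of Clec4e also takes in the KO groups, whose arrays lay further apart, as given for that genotype.

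Most of the wt rise lay between 2 h and 6 h. At 2 h, limma called 0 of 10 members against untreated liver, where 6.53% of tested genes were called higher, and 1 member, Mmp8, had an unadjusted p under 0.05. Mmp8 read 5.22 and 5.67 at 2 h, both above the untreated arrays, a difference of 1.79 ± 0.74 (adjusted p = 0.148 in limma). Clec4d read 5.77 and 5.88 (0.83 ± 0.44) and S100a9 6.20 and 6.30 (0.44 ± 0.26). Their arrays also lay above the untreated ones, and these 3 genes were called when only the compared groups were fitted. Retnlg at 5.00 and 4.58, Clec4e at 4.17 and 4.04 and Csf3r at 6.46 and 6.34 overlapped the untreated arrays. Mmp9, at 4.89 and 4.79, lay below them (-0.18 ± 0.17, not past the test).

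From 2 h to 6 h in wt liver, 9 of 10 members rose, and 10.9% of tested genes were called higher in that step. Of the 9, Retnlg, Mmp8, Mmp9 and Clec4e passed the limit on the mean only through the wt 6 h arrays. The step was 2.49 ± 0.24 for S100a8, 3.89 ± 0.58 for Retnlg, 3.72 ± 0.80 for Clec4e and 1.19 ± 0.17 for Mmp9. Ngp, with a step of 0.29 ± 0.17 (adjusted p = 0.212 in limma), was the exception. The median step was 2.31 over the members and -0.09 over all tested genes. Mmp8 and Il1r2 lost their calls as well without wt 6 h replicate 1 or wt 2 h replicate 1, leaving 7, and without wt 2 h replicate 2 Il1r2 did, leaving 8.

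In KO liver no member passed the test at either time. Beside the 0 of 10 called at 2 h, limma called 10.6% of tested genes higher, and beside the 0 of 10 called at 6 h it called 15.8% higher. At each time 1 member had an unadjusted p under 0.05, Mmp8 at 2 h and Retnlg at 6 h. The median difference was 0.45 at 2 h and 0.33 at 6 h over the members, and -0.06 and -0.05 over all tested genes.

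S100a8 stayed near its untreated level in KO liver, at 6.49 and 6.90 at 2 h and 6.85 and 6.82 at 6 h. Its 6 h difference was 0.18 ± 0.24, with an interval of -0.35 to 0.71. S100a9 read 5.73 and 6.51 at 2 h and 6.18 and 5.71 at 6 h, against 5.60 and 5.87 untreated. Its 6 h arrays overlapped the untreated ones, with a difference of 0.21 ± 0.26. Csf3r read 6.22 and 7.10 at 2 h and 6.77 and 6.33 at 6 h, against 5.97 and 6.27 untreated, and its 6 h difference was 0.43 ± 0.27. Il1r2 read 6.10 and 6.72 and then 6.29 and 6.14, against 6.01 and 6.15. Only the higher array at each time stood clear of the untreated Il1r2 values.

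Both KO 6 h arrays lay above both untreated ones for 4 members, S100a8, Csf3r, Retnlg and Mmp8, without passing the test. Between genotypes in untreated liver, where no member was called, both KO arrays also lay above both wt arrays for 4 members. Retnlg read 6.09 and 5.49 at 6 h against 4.74 and 4.13 untreated, a difference of 1.35 ± 0.58 (adjusted p = 0.0954 in limma). It was called when only the compared groups were fitted. Mmp8 read 5.42 and 4.51 against 4.14 and 4.17, a difference of 0.81 ± 0.74. Mmp8 was higher at 2 h than at 6 h in KO liver, at 5.12 and 7.45, a 2 h difference of 2.13 ± 0.74 (adjusted p = 0.0512 in limma). Mmp9 read 4.61 and 5.14 at 2 h and 5.11 and 4.86 at 6 h, and Ngp 5.18 and 5.08 and then 5.49 and 5.01. Their untreated KO arrays read 4.91 and 5.13 for Mmp9 and 4.99 and 5.04 for Ngp, so the 6 h groups overlapped for both.

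Among the 10 members, the KO 6 h arrays lay furthest apart for the lectin receptors, with gaps of 2.98 for Clec4e and 1.23 for Clec4d. Clec4e read 7.40 and 4.42 at 6 h against 4.47 and 4.07 untreated, so 1 array reached nearly the wt level and the other stayed within the untreated range. A gap as large as that of Clec4e was found for 0.0352% of tested genes in that group. The fitted difference of 1.63 ± 0.80 (adjusted p = 0.141 in limma) rested on that spread. It was 3.12 (adjusted p = 0.00387 in limma) without KO 6 h replicate 2. Clec4d read 6.29 and 5.06 against 5.03 and 5.29, and was 4.96 and 6.39 at 2 h.

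The members moved together within the arrays that stood apart. The mean over the 10 members, relative to untreated liver of the same genotype, was 3.02 and 2.25 in the wt 6 h arrays and 0.92 and 0.17 in the KO 6 h arrays. It was 0.37 and 0.40 in the wt 2 h arrays and -0.02 and 1.09 in the KO 2 h arrays. The KO 2 h replicate 2 array was above replicate 1 for 9 of 10 members, by 2.33 for Mmp8, 2.19 for Retnlg and 1.96 for Clec4e. The median gap between the KO 2 h arrays was 0.83 over the members and 0.156 over all tested genes. Without KO 2 h replicate 1, 3 members were called at 2 h in KO liver, Mmp8 (3.30), Retnlg (1.88) and Csf3r (0.98). In both 6 h groups replicate 1 was above replicate 2 for 10 of 10 members, with a median gap of 0.55 in wt and 0.47 in KO liver.

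Between 2 h and 6 h in KO liver, limma called 0 of 10 members, 0 had an unadjusted p under 0.05, and 31.7% of tested genes were called in either direction. The arrays of the 2 times overlapped for all 10 members. The differences ran from -1.32 ± 0.74 for Mmp8 to 0.99 ± 0.80 for Clec4e. Leaving out 1 array gave 1 call each without KO 2 h replicate 1 (Mmp8, lower), KO 2 h replicate 2 (Retnlg, higher) or KO 6 h replicate 2 (Clec4e, higher).

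**Figure D2:**
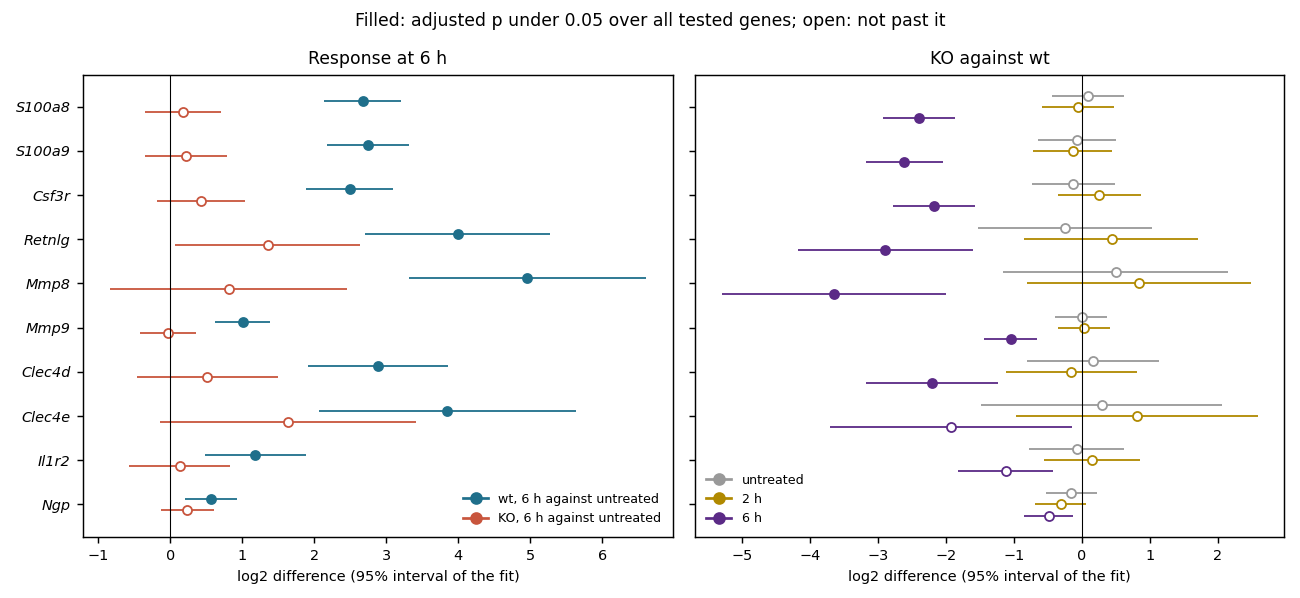
Log2 differences (horizontal axis) with the 95% interval of the fit are drawn for each gene. The left panel has 6 h against untreated in wt and KO liver, and the right panel has KO against wt untreated, at 2 h and at 6 h. Filled points passed an adjusted p under 0.05 over all tested genes, which 10 genes did in wt liver at 6 h and 7 in the 6 h comparison of genotypes.

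The genotypes were compared within each time. At 2 h, limma called 0 of 10 members between KO and wt, 0 had an unadjusted p under 0.05, and 2.01% of tested genes were called in either direction. The differences ran from -0.31 ± 0.17 (Ngp) to 0.84 ± 0.74 (Mmp8), and 9 of the 10 members had overlapping arrays.

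At 6 h all 10 members read lower in both KO arrays than in both wt arrays, a count with no share over all tested genes beside it. The test called 7 lower. Of these 7, Retnlg, Mmp8 and Mmp9 passed the limit on the mean only through the wt 6 h arrays. Of all tested genes, 4.93% were called lower in KO. The median difference was -2.19 over the members and 0.01 over all tested genes. The calprotectin genes stood furthest from their error, at -2.40 ± 0.24 for S100a8 and -2.61 ± 0.26 for S100a9 (adjusted p = 0.000777 for both in limma). Csf3r was lower by 4.51-fold, Clec4d by 4.6-fold, Retnlg by 7.39-fold, Mmp8 by 12.55-fold and Mmp9 by 2.06-fold. Adjusted p in limma was 0.00307, 0.0173, 0.0176, 0.0187 and 0.00881 for these 5 genes. Clec4e (-1.92 ± 0.80, adjusted p = 0.149), Il1r2 (-1.12 ± 0.32, adjusted p = 0.0532) and Ngp (-0.48 ± 0.17, adjusted p = 0.0887) did not pass limma's test.

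The number of calls in that comparison depended on single arrays. It fell to 3, S100a8, S100a9 and Csf3r in both cases, without wt 6 h replicate 1 or without KO 6 h replicate 2. Without KO 6 h replicate 1, 9 were called, with Il1r2 the exception. Fitting only the 4 arrays compared gave 4 calls.

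The difference in response itself was tested by subtracting the wt response from the KO response. At 2 h, limma called 0 of 10 members, 0 had an unadjusted p under 0.05, and 0.0293% of tested genes were called in either direction. At 6 h the smaller KO response passed for 2 members, S100a8 (-2.50 ± 0.34, adjusted p = 0.0132) and S100a9 (-2.54 ± 0.36, adjusted p = 0.0183), in limma. Of all tested genes, 0.399% were called lower in this contrast. Csf3r, at -2.06 ± 0.39 (adjusted p = 0.0564 in limma), lay just outside the threshold. Mmp8 had the largest estimate, -4.15 ± 1.05 (adjusted p = 0.111 in limma), and Ngp the smallest, -0.34 ± 0.23 (adjusted p = 0.501 in limma). All 10 estimates were below 0, with a median of -2.29 against 0.03 over all tested genes.

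The 2 calls in the 6 h contrast were lost without wt untreated replicate 1, wt untreated replicate 2 or the array labelled KO untreated replicate 2, where 0 were called. The S100a8 estimate was then -2.49, -2.50 and -2.47, with adjusted p of 0.0639, 0.0578 and 0.0618 in limma. S100a8 alone was called without wt 6 h replicate 1 or KO 6 h replicate 2. The count was 5 without wt 6 h replicate 2 or KO 6 h replicate 1. Without either KO 2 h array Csf3r was called as well, making 3.

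The late step, 6 h minus 2 h, was smaller in KO than in wt liver for 6 called members, while 2.06% of tested genes were called lower. These were S100a8 (-2.35 ± 0.34), S100a9 (-2.48 ± 0.36), Csf3r (-2.43 ± 0.39), Retnlg (-3.32 ± 0.82), Mmp8 (-4.49 ± 1.05) and Mmp9 (-1.08 ± 0.24). Adjusted p in limma ran from 0.012 for S100a8 to 0.0425 for Retnlg. Retnlg was not called without the limit on the mean, which it passed only through the wt 6 h arrays (adjusted p = 0.0506 in limma, 5 members called). Mmp8 and Mmp9 also passed that limit only through those arrays. Under quantile normalization neither Retnlg (adjusted p = 0.058) nor Mmp8 (adjusted p = 0.0535) was called in limma, leaving 4. This contrast and the one above share the 6 h arrays. Clec4d (-2.05 ± 0.62, adjusted p = 0.0715 in limma), Il1r2, Clec4e and Ngp did not pass. The count was 0 without wt 2 h replicate 2. It was 2 without wt 2 h replicate 1, wt 6 h replicate 1 or KO 6 h replicate 2, and 3 without any 1 of the 4 untreated arrays. Without KO 2 h replicate 2 it was 4, and without KO 6 h replicate 1 it was 8.

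Across the 6 groups wt 6 h ranked first for all 10 members. The next group differed between genes. KO 6 h came second for S100a8, Retnlg and Clec4e, KO 2 h for Csf3r, Mmp8 and Il1r2, wt 2 h for S100a9, Clec4d and Ngp, and wt untreated for Mmp9. The wt 6 h arrays lay clear of the arrays of the next group for 9 of 10 members, Il1r2 being the exception, with wt 6 h replicate 2 and KO 2 h replicate 2 both at 6.72. Among the 40 pairs of neighbouring groups further down, the arrays lay apart in 6 and overlapped in the rest. The range of group means was 0.72 for Ngp and 4.96 for Mmp8. Levels were not compared between genes, since probe sets differ in their response.

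Over the 12 arrays the members followed each other, as a description of arrays that share groups. Pearson's r over the 45 pairs was 0.669 at its lowest (Mmp9 with Ngp), 0.904 at the median and 0.986 at its highest (S100a9 with Csf3r). S100a8 with S100a9 had 0.977, Clec4d with Clec4e 0.904, and the 2 metalloproteinases 0.776. Against the mean of the standardised members, Csf3r had the highest r at 0.989 and Ngp the lowest at 0.812.

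The 10 tested genes outside the list whose profile was most like that mean were Tnfaip3 (r = 0.990), Adamts4 (0.980), Ch25h (0.980), Rasip1 (0.978), Cxcr2 (0.978), Dbn1 (0.977), Tlr13 (0.976), Srgn (0.974), Gprc5a (0.974) and Gfpt2 (0.972), each over 12 arrays. Tnfaip3 encodes A20, an inhibitor of NF-kB signalling, and Srgn serglycin, the proteoglycan of blood cell granules. Cxcr2 is the chemokine receptor that draws neutrophils to tissue. It read 9.98 and 8.65 in wt 6 h liver against 5.78 and 5.62 untreated, and 6.47 and 6.20 in KO 6 h liver against 6.05 and 5.82. Its wt difference was 3.61 ± 0.34, and KO response minus wt response was -3.22 ± 0.48. Gprc5a, a membrane receptor of epithelial cells, read 10.56 and 9.43 in wt 6 h liver and 6.26 and 5.69 in KO 6 h liver, from 4.93 and 5.13 and from 5.02 and 5.01 untreated. Its KO response minus wt response was -4.01 ± 0.48. These 10 genes were picked by their profile over the same 12 arrays. The direction of their differences follows from that choice, so the values are a description only.

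Other proteins of neutrophil granules were called about as often as genes in general. Of 20 listed genes, 18 had a probe set and 15 were tested. At 6 h in wt liver 2 of the 15 rose, beside 16.5% of all tested genes. They were Lcn2 (3.81 ± 0.22), an iron-siderophore binder that the liver also makes in the acute phase, and Hdc (2.59 ± 0.29), the enzyme of histamine synthesis. Ltf, lactoferrin, fell by 0.35 ± 0.12, and the list's median was 0.17. The genes of primary granules, made in marrow precursors, did not pass, with Mpo at 0.23 ± 0.13, Elane at -0.70 ± 0.27 and Ctsg at 0.23 ± 0.31. Camp, the cathelicidin, stood at 0.07 ± 0.12. Without the limit on low means, the stefin gene Stfa1 (1.17 ± 0.25) and the granule gene Olfm4 (0.73 ± 0.15) were called as well, giving 4 that rose.

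Lcn2 and Hdc were then compared between genotypes. Lcn2 read 12.01 and 11.39 in wt 6 h and 11.74 and 12.33 in KO 6 h liver, from 7.74 and 8.04 in wt and 9.38 and 9.58 in KO untreated liver. Its genotype difference at 6 h was 0.33 ± 0.22 (adjusted p = 0.359 in limma). Its KO response minus wt response was -1.25 ± 0.32 (adjusted p = 0.109 in limma), not past the test, and that of Hdc was -2.48 ± 0.41 (adjusted p = 0.0329 in limma). Hdc read 9.02 and 8.20 in wt 6 h and 6.89 and 6.67 in KO 6 h liver, from 6.31 and 5.73 and from 6.63 and 6.71. It was lower in KO at 6 h (-1.83 ± 0.29), and had already risen at 2 h in both genotypes (2.02 ± 0.29 and 1.85 ± 0.29). Of the 15 granule genes, 2 were lower in KO at 6 h, beside 4.93% of all tested genes. They were Hdc and Slpi, a protease inhibitor (-0.57 ± 0.15). The count was 0 without wt 6 h replicate 1 or KO 6 h replicate 2, and 1 without any 1 of the 4 untreated or the 2 wt 2 h arrays. Without the limit on low means Stfa1 (-1.40 ± 0.25) and Olfm4 (-0.79 ± 0.15) were lower too, making 4.

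Surface receptors and adhesion molecules of neutrophils rose in 9 of 16 tested genes at 6 h in wt liver, with a median of 0.44. Of all tested genes, 16.5% were called higher there. Cxcr2 had the largest difference. Trem1, an amplifying receptor of myeloid cells, rose by 2.24 ± 0.29, C5ar1, the receptor of complement fragment C5a, by 1.70 ± 0.20, and Trem3 by 0.79 ± 0.12. In KO liver 2 of 16 rose, C5ar1 (1.09 ± 0.20) and Trem3 (0.61 ± 0.12), and Fcgr3 fell by 0.45 ± 0.14. A rise in 2 of 16 was near the 15.8% of all tested genes called higher. Between genotypes at 6 h, 5 were lower in KO, beside 4.93% of all tested genes. They were Cxcr2 (-2.98 ± 0.34), Trem1 (-2.18 ± 0.29), Selplg (-0.76 ± 0.16), Itgam (-0.65 ± 0.13) and Csf2rb (-0.78 ± 0.19). That count was 2 without wt 6 h replicate 1 or KO 6 h replicate 2. The KO response was called smaller for 2 of the 16, beside 0.399% of all tested genes called lower in that contrast. They were Cxcr2 (-3.22 ± 0.48, adjusted p = 0.0226 in limma) and Trem1 (-2.37 ± 0.41).

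Enzymes of the oxidase and of leukotriene synthesis were mixed. Of 8 tested genes 2 rose at 6 h in wt liver, beside 16.5% of all tested genes. They were Alox5ap (1.54 ± 0.23), which presents arachidonic acid to 5-lipoxygenase, and Ncf1 (0.36 ± 0.13), an oxidase subunit. Lta4h (-0.64 ± 0.12) fell, and so did Cybb (-0.66 ± 0.22), the catalytic subunit of the oxidase, which macrophages also carry. Alox5ap was the 1 gene of the 8 called lower in KO at 6 h (KO minus wt -1.35 ± 0.23), beside 4.93% of all tested genes. In wt liver 1 of the 8 rose and 1 fell without wt 6 h replicate 1, and 0 were called between genotypes without KO 6 h replicate 2.

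**Figure D3:**
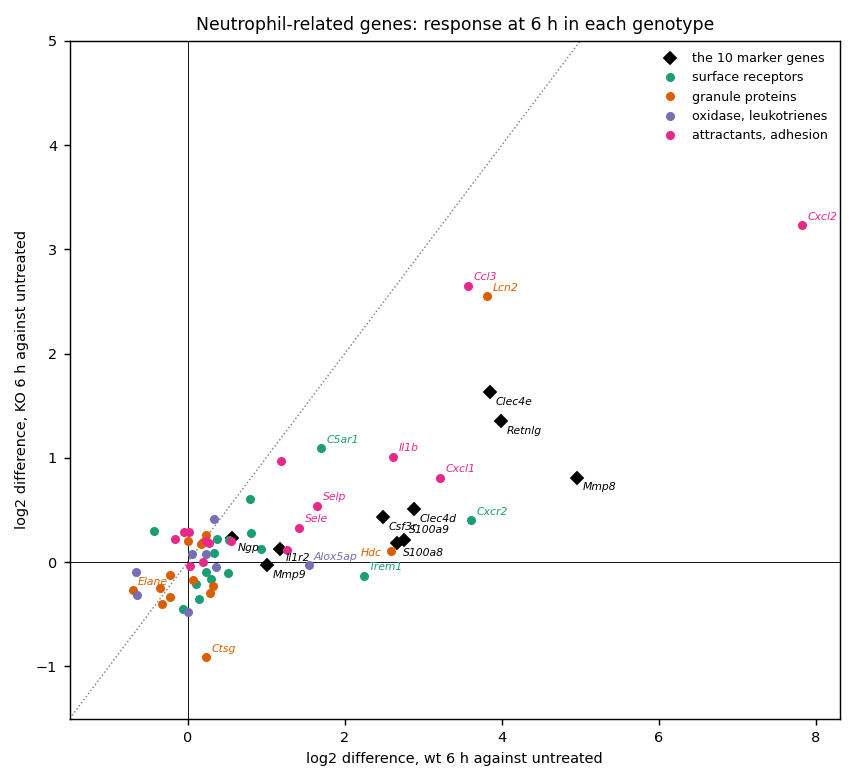
Each point is a gene, placed by its log2 difference at 6 h against untreated in wt (horizontal axis) and KO liver (vertical axis). Black diamonds are the 10 marker genes and coloured circles are the tested genes of 4 lists, with the dotted line at equal response. All 10 marker genes lie to the right of that line, with Mmp8 at 4.96 and 0.81, while Lcn2 lies at 3.81 and 2.55.

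Chemokines, growth factors and endothelial adhesion molecules that bring neutrophils into tissue rose in 9 of 16 genes at 6 h in wt liver, with a median of 0.87. Beside them, 16.5% of all tested genes were called higher. Cxcl1, a chemokine that binds CXCR2, read 10.65 and 10.31 against 7.34 and 7.20 untreated, a difference of 3.21 ± 0.32. The selectin genes of endothelium rose too, Sele by 1.42 ± 0.14 and Selp by 1.65 ± 0.20, and so did Il1b, interleukin-1 beta, by 2.62 ± 0.28. Cxcl2, another CXCR2 ligand, read 8.69 and 8.88 already at 2 h in wt liver, and 11.61 and 11.01 at 6 h, from 3.76 and 3.23. In KO liver Cxcl2 differed widely between arrays, with 4.01 and 8.63 on the 2 h arrays, then 8.97 and 3.24 on those of 6 h. The higher KO Cxcl2 arrays were KO 2 h replicate 2 and KO 6 h replicate 1, which also had the higher mean of the members.

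In KO liver at 6 h, 3 of these 16 genes rose, Icam1 (0.97 ± 0.18), Ccl3 (2.65 ± 0.63) and Il1b (1.01 ± 0.28), a share near the 15.8% of all tested genes. The count was 1 without the array labelled KO untreated replicate 2 and 6 without KO 6 h replicate 2. Between genotypes at 6 h, 4 were lower in KO, beside 4.93% of all tested genes. They were Sele (-1.07 ± 0.14), Cxcl1 (-2.41 ± 0.32), Il1b (-1.92 ± 0.28) and Selp (-0.84 ± 0.20). The count was 2 without wt 6 h replicate 1. Cxcl2, at -5.20 ± 1.63 (adjusted p = 0.0708 in limma), did not pass.

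Partners of the members were read next, as ligands, co-receptors, adaptors and inhibitors. Csf3, the ligand of Csf3r, read 6.06 and 6.03 at 6 h in wt liver against 5.73 and 5.99 untreated, a difference of 0.19 ± 0.14 that did not pass. Il1a, an interleukin-1 ligand, rose at 2 h in wt liver by 2.25 ± 0.46 and stood at 1.27 ± 0.46 at 6 h, also called. Il1r1, the signalling receptor, rose by 2.13 ± 0.24 and Il1rn, the receptor antagonist, by 2.69 ± 0.50, while the co-receptor Il1rap fell by 0.95 ± 0.17. Tlr4, a receptor of calprotectin, rose by 0.38 ± 0.11, and Ager, which encodes RAGE, stood at 0.07 ± 0.12. The signalling partners of Mincle did not pass, Fcer1g at 0.12 ± 0.15 and Card9 at 0.20 ± 0.13, whereas Bcl10, downstream of Card9, rose by 1.26 ± 0.14. Timp1, an inhibitor of MMP9, rose by 0.52 ± 0.12, and Timp3 by 1.81 ± 0.23.

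In all, 8 of the 16 partners rose in wt liver at 6 h, while Il1rap and Timp2 (-0.52 ± 0.17) fell. Of all tested genes, 16.5% were called higher in wt and 15.8% in KO liver at 6 h. Il1rn rose in KO liver as well, by 3.19 ± 0.50, and its genotype difference at 6 h was 0.14 ± 0.50. In KO liver 5 partners rose at 6 h, while Il1rap and Timp2 fell, and fewer were called without KO 6 h replicate 1. Lower in KO at 6 h were 4 partners, beside 4.93% of all tested genes. They were Tlr4 (-0.79 ± 0.11), Timp3 (-1.66 ± 0.23), Il1b and Bcl10 (-0.94 ± 0.14). This count was 2 without wt 6 h replicate 1.

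Some markers of other blood cells also rose in wt liver. Of the platelet markers Pf4, Ppbp, Itga2b, Gp9 and Treml1, 5 of 6 listed genes were measured, and 4 rose in wt 6 h liver, with Ppbp at 2.85 ± 0.40 and Pf4 at 2.11 ± 0.33. All 5 had already risen at 2 h in wt liver, when no member was called. The shares of all tested genes called higher in wt liver were 6.53% at 2 h and 16.5% at 6 h. The summed intensity of these 5 genes was 366 to 375 in wt untreated, 1251 to 1316 in wt 2 h and 988 to 1307 in wt 6 h liver. It was 357 to 375, 494 to 905 and 394 to 490 in KO liver. At 6 h 4 of the 5 were lower in KO, beside 4.93% of all tested genes. The part of platelets in the result was not tested.

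Erythroid markers were measured for 3 of 6 genes, Alas2, Slc4a1 and Epb42. Their summed intensity was 519 to 643, 885 to 1191 and 1142 to 1863 in wt liver over the 3 conditions, and 474 to 780, 446 to 558 and 314 to 315 in KO liver. At 6 h Alas2 (-2.66 ± 0.30) and Slc4a1 (-1.24 ± 0.28) were lower in KO, while Epb42 did not differ detectably (0.05 ± 0.11). Lymphocyte and NK cell markers summed to 418 to 422, 510 to 588 and 403 to 410 in wt liver over the 3 conditions. In KO liver they summed to 384 to 389, 384 to 416 and 394 to 402. Of the tested genes of that list, only Cd3e was called at 2 h in wt liver (1.83 ± 0.19). Markers of eosinophils, basophils and mast cells summed to 282 to 295, 306 to 336 and 280 to 307 in wt liver. The part of blood in the livers was not tested. The members' own summed intensity was 451 to 453, 556 to 571 and 2191 to 4114 in wt liver, and 436 to 469, 446 to 920 and 500 to 812 in KO liver.

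**Figure D4:**
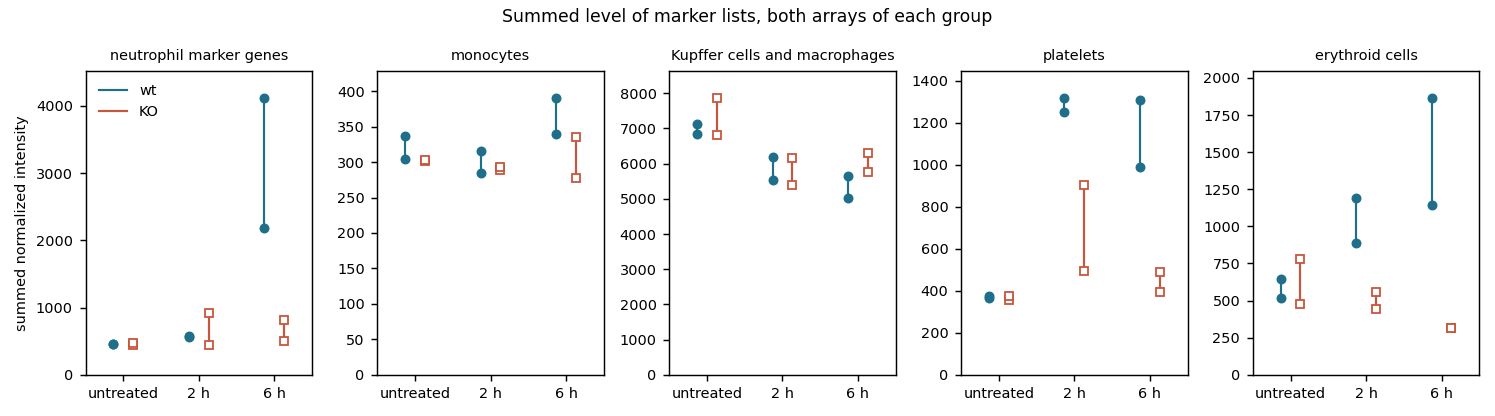
Summed normalized intensity (vertical axis, from 0, a scale of its own in each panel) of the 10 marker genes and of 4 lists of cell markers is drawn for both arrays of each group. Filled circles are wt and open squares KO. The platelet sum is raised at 2 h and 6 h in wt liver (1251 to 1316 and 988 to 1307), the sum of the 10 genes at 6 h.

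The label of the set was set against its cells' defining markers. The fixed neutrophil marker list held 6 genes, of which 5 were measured, Ly6g having no probe set of its own symbol. All 5 rose in wt 6 h liver, beside 16.5% of all tested genes, and 5 were lower in KO at 6 h, beside 4.93%. However, S100a8, S100a9, Csf3r and Retnlg are on both lists, so Cxcr2 alone is separate from the members. Monocyte markers, 5 of 6 measured, summed to 304 to 337, 285 to 316 and 339 to 390 in wt liver and to 277 to 335 in KO 6 h liver. Ccr2 (0.45 ± 0.14) and Vcan (0.60 ± 0.21) were called higher at 6 h in wt liver, beside 16.5% of all tested genes. F13a1 (0.25 ± 0.11), Cx3cr1 (-0.29 ± 0.18) and Chil3 (-0.32 ± 0.36) were not called. Of these markers only Ccr2 was called lower in KO at 6 h (-0.52 ± 0.14, adjusted p = 0.04 in limma). Of the Kupffer cell and macrophage markers, 12 of 12 measured, Cd68 was called higher at 6 h in wt liver (1.24 ± 0.14). Adgre1 (-1.15 ± 0.15), Timd4, Csf1r, Vsig4, Folr2, C1qa and Clec4f were called lower. The share of all tested genes called lower there is not given here. Adgre1 was higher in KO than in wt liver at 6 h (0.80 ± 0.15, adjusted p = 0.0136 in limma). The sum of these markers was 6831 to 7127 in wt untreated and 5013 to 5639 in wt 6 h liver. The part of these cells in the result was not tested. Hepatocyte markers, 8 of 10 measured, summed to between 58767 and 68165 over all arrays.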

How the data were processed

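Per the labels, RNA of 12 liver samples was measured on Affymetrix Mouse Gene 1.1 ST arrays, 1 sample each, and per the submitters' processing notes the arrays were processed in Affymetrix Expression Console with RMA. The values the authors deposited are normalized intensities on a linear scale (array medians 79.9 to 90.1). Log2 was taken here with no pseudocount, where the choice of members speaks of log2 values. Of 35556 probe sets, 21218 carried 1 gene symbol, by the platform's annotation. The rest, 1881 with several symbols and 12457 with none, were left out. The probe set with the highest mean stood for each of the 1386 genes with several.

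The 17052 genes with a mean log2 of at least 5 entered a limma fit (limma 3.58.1, R 4.3.3) of 6 group means over the 12 arrays, whose residual degrees of freedom were 6 and prior ones 4.33. P-values are two-sided and adjusted over all tested genes within each of 12 comparisons (Benjamini-Hochberg), and called means an adjusted p under 0.05. Errors after ± are standard errors of differences between means of 2 arrays. The fit was tested on simulated data.

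All 10 members are named, and of each list mainly the genes with the smallest p. Partners are named by role, and the genes most like the members by r. The members and lists were chosen with earlier results of these data known. The alternatives were quantile normalization, no limit on the mean or one of 7, log2 of the value plus 16, averaged probe sets, a variance trend, fits of just the compared groups, a block for the replicate number, and each array left out.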

Additional observations from a re-analysis of the deposited data

Results flagged for a closer look

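The response of KO liver differed from that of wt liver, by the test of the difference itself, for 8 results. At 6 h against untreated, the KO response of S100a8 was -2.50 and that of S100a9 -2.54 relative to the wt response on the log2 scale. In the step from 2 h to 6 h, the KO step relative to the wt step was -2.35 for S100a8, -2.48 for S100a9, -2.43 for Csf3r, -3.32 for Retnlg, -4.49 for Mmp8 and -1.08 for Mmp9. None of these calls held with every array left out in turn. The calls at 6 h were lost without wt untreated replicate 1 or 2, and those of the step without wt 2 h replicate 2. The contrasts share the 6 h arrays and are not independent of each other. Retnlg, Mmp8 and Mmp9 passed the limit on the mean only through the wt 6 h arrays. No group had the 4 arrays needed to look for a single outlying array.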

How the results depend on the processing

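Of 34 called member differences, 18 kept sign and call under every alternative tried, and 0 reversed. The 18 included no call of the 6 h difference in response or of the late step. Over 651 alternative values of these differences, 581 kept sign and call and 70 lost the call. Of 86 differences that were not called, 22 gained a call under at least 1 alternative. A mean log2 of at least 7 left only S100a8 to test, which passed it only through the wt 6 h arrays (mean 6.70 without them). Counts under this limit could not exceed 1. They were 1 each for wt 6 h against untreated, wt 6 h against 2 h, KO against wt at 6 h, the 6 h difference in response and the late step. Fitting only the compared groups gave 3 calls for wt 2 h, 1 for KO 6 h, 4 for KO against wt at 6 h and 2 for the late step. It also lost Il1r2 in wt 6 h against untreated (9) and against 2 h (8), and added Csf3r in the 6 h difference in response (3). The late step had 5 calls with no limit on the mean, 4 under quantile normalization and 7 with log2 of the value plus 16, which gave 3 for the 6 h difference in response. A variance trend gave 1 for KO 2 h, and also called Il1r2 in KO against wt at 6 h (8 calls) and Csf3r in the 6 h difference in response (3 calls). The cause was not tested. Leaving out 1 array gave 8 to 10 calls for wt 6 h against untreated, 7 to 9 for wt 6 h against 2 h, 0 to 3 for KO 2 h, 0 to 1 for KO 6 h, and 0 to 1 for KO 6 h against 2 h. It gave 3 to 9 for KO against wt at 6 h, 0 to 5 for the 6 h difference in response and 0 to 8 for the late step. With 1 array left in a group, that array is assumed to vary like the other groups.

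With the replicate number as a block, the counts of called members were 10, 9, 7, 2 and 6 for wt 6 h against untreated, wt 6 h against 2 h, KO against wt at 6 h, the 6 h difference in response and the late step, the same as without it, and 0 in the other 7 comparisons. The difference of replicate 2 minus replicate 1 was taken for each gene in each group. Over genes, these differences correlated at -0.134 to 0.185 between groups (15 pairs of groups), so the numbers showed no pairing of the samples. Having 2 arrays a group, and signal below a log2 of 5 for Retnlg, Mmp8 and Clec4e in untreated liver, limits what is detectable.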
